A study of Mus musculus with 8 samples.

Results

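The downstream promoter summits are the summits of ATAC-seq peaks that lay more than 100 and at most 1000 bp inside a gene, counted in the direction of transcription from the transcription start site (TSS). A summit of the deposited peak list was a member when its nearest RefSeq curated mRNA (NM) TSS was the one it lay downstream of, and when it did not fall between divergent TSSs of different genes at most 1000 bp apart. The list held 32173 summits, of which 31729 were on chromosomes 1 to 19, and 3497 of these (11.0%) were members. They were split by whether the summit lay in an exon (1428 members) or an intron (2065 members) of the mRNAs that start at that TSS, and 4 lay past the end of a short mRNA.

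ATAC-seq, which marks open chromatin by the insertion of a transposase, was run on nuclei of brown adipose tissue (BAT) from 2 WT and 2 Dot1L-BKO mice. All mice were kept on chow to 12 weeks of age and exposed to 4°C for 4 h before the tissue was taken, and the 4 ATAC-seq libraries came from 4 separate animals. In Dot1L-BKO mice, floxed Dot1l was deleted by a Cre driven by the Ucp1 promoter, so that the deletion was aimed at Ucp1-expressing brown adipocytes while other cells of the depot kept the gene. The study asked whether loss of Dot1l changed chromatin accessibility in BAT, but the list gives 1 score per peak and none for each library, so the genotypes could not be compared here and no value has a replicate error.

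Just downstream of an active TSS lie the positioned nucleosomes that open the transcribed region, the 5′ untranslated region (UTR), often the start codon, and in most genes the boundary between exon 1 and intron 1. RNA polymerase II pauses in the early part of this stretch, and intron 1 is a common site of regulatory elements. Dot1l is the methyltransferase of lysine 79 of histone H3, and its mark covers the 5′ part of transcribed genes, including the window described here. Whether these summits carried the mark was not measured.

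Each peak has a score, the −log10 of its MACS2 q-value, so that a score of 10 means a q-value of 1e-10. The names of the peaks set the WT libraries against the Dot1L-BKO libraries without saying which served as signal and which as background, so a score may hold signal over background or a contrast of genotypes. Read depth is unknown, and the intervals printed below are 95% Wilson intervals that cover counting error only. The tissue label was checked with marker genes, where 46.8% of all genes had a summit within 1000 bp of a TSS. Of 13 markers of brown adipocytes, which include the general adipocyte genes Pparg, Plin1 and Adipoq, 12 had one (Adrb3 had none). The count was 1 of 4 for endothelial markers (Cdh5), 1 of 4 for leukocyte markers (Cd68) and 1 of 3 for hepatocyte markers (Apoa1). It was 0 of 4 for muscle markers and 0 of the 2 neuron markers on these chromosomes. A summit at a promoter does not measure expression, so this is a weak check of the cells sampled.

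The DNA under some of the members that carry the results below is printed first, as the summit base with 50 bases on each side, on the transcribed strand from 5′ to 3′, from the RefSeq GRCm38.p6 assembly (mm10). Capitals mark matches to the short patterns that were searched, and a match is not a measured binding site. The first group lay in introns and includes high-scoring members with a pattern (Cic and Opa3 with CCAAT on either strand, Tom1 and Immt with GGGCGG or its complement, Leng8 with the splice donor pattern GGTAAG), and members at genes of brown fat (Otop1, Pnpla2 and Aifm2).
Cic (chr7:25267952-25268052, plus strand): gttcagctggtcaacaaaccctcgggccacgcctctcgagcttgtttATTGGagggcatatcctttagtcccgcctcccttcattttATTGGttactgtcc
Tom1 (chr8:75033876-75033976, plus strand): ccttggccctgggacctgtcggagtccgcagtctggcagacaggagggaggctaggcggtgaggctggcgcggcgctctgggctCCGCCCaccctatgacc
Immt (chr6:71831600-71831700, plus strand): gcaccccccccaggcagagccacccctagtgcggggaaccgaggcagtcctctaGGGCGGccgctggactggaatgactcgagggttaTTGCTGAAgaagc
Leng8 (chr7:4137172-4137272, plus strand): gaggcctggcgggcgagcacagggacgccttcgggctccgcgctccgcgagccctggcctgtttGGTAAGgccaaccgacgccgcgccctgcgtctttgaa
Opa3 (chr7:19228603-19228703, plus strand): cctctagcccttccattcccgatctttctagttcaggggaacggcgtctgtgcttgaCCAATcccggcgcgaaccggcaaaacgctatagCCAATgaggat
Otop1 (chr5:38278280-38278380, plus strand): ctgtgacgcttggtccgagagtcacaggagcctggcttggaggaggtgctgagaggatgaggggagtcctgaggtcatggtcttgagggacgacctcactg
Pnpla2 (chr7:141455879-141455979, plus strand): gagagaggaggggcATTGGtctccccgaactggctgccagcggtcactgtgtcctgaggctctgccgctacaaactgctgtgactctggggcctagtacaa
Aifm2 (chr10:61715376-61715476, plus strand): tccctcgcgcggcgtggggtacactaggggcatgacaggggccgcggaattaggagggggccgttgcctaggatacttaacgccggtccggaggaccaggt

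The second group lay in coding exons. It is smaller because windows that touch an annotated UTR are not printed, and of the 10 exonic members with the highest scores only Ppdpf had a window free of them. Mrps28, Cebpb and H2bc8 are shown as coding members of the gene lists described further on, and only the Mrps28 window holds a searched pattern.
Ppdpf (chr2:181187965-181188065, plus strand): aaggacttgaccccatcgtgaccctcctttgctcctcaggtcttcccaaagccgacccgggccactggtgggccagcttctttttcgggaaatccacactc
Mrps28 (chr3:8923647-8923747, minus strand): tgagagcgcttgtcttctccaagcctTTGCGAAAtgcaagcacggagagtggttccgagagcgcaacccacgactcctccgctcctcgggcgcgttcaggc
Cebpb (chr2:167689732-167689832, plus strand): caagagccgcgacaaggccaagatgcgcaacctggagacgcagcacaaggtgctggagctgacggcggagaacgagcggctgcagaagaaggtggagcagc
H2bc8 (chr13:23571590-23571690, plus strand): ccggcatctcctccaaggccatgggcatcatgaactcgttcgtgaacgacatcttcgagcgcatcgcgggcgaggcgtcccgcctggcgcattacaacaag

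The number of summits fell steadily with distance into the gene. In bins of 100 bp, each past its lower limit, 846 members lay 100 to 200 bp downstream of the TSS, 638 at 200 to 300 bp, 306 at 500 to 600 bp and 207 at 800 to 900 bp, and the median distance was 358 bp. Upstream of the TSS the fall was steeper: 1205 summits lay at 100 to 200 bp and 90 at 800 to 900 bp, with a median of 249 bp. Over the whole flank, members were 53.2% (interval 52.0 to 54.4) of the 6577 summits of both flanks. That majority came from the far bins, since the downstream share was 41.2% at 100 to 200 bp, 50% at 200 to 300 bp and 69.7% at 800 to 900 bp. It was lost with a minimum score, the downstream share being 46.7% among flank summits that scored 5 or more and 35.1% among those that scored 10 or more. No break marked the inner limit, as the 183 summits over 80 and up to 100 bp downstream had a median score of 8.65 and the 177 members up to 120 bp had 8.12. At the outer limit, the 29 members over 980 bp had a median of 4.16 and the 40 summits over 1000 and up to 1020 bp had 3.75.

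**Figure D1:**
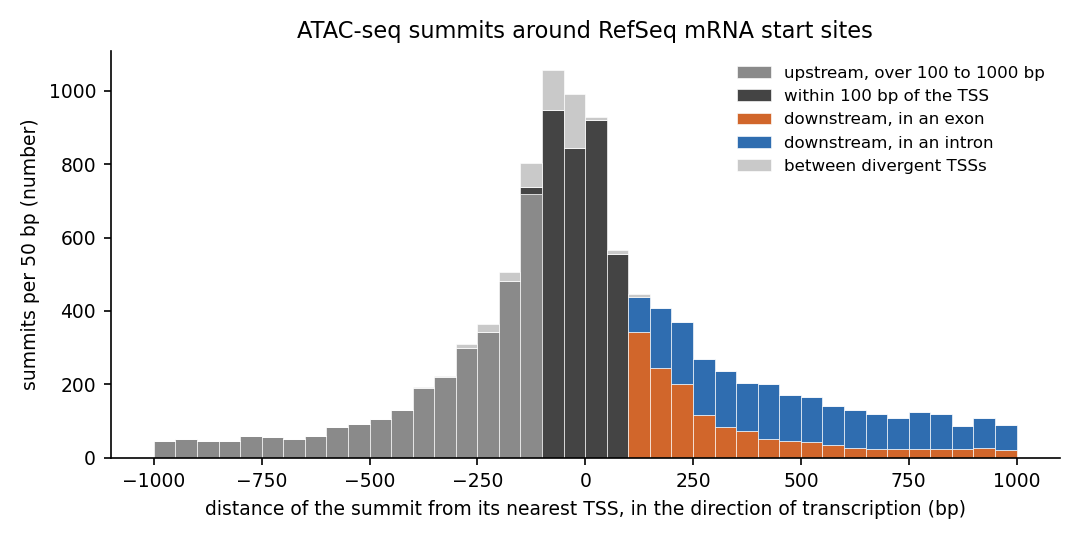
Number of summits (y axis, per 50 bp) by distance in bp from the nearest mRNA TSS in the direction of transcription (x axis), stacked by class. The downstream side, split into exon (orange) and intron (blue), falls more slowly than the upstream side and changes from mostly exonic to mostly intronic with distance.

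Most members had no other summit close by. The median distance from a member to the nearest other summit was 2100 bp and the shortest was 249 bp. Another summit lay within 1000 bp of 1143 members (32.7%) and within 500 bp of 186 (5.32%). The list holds no peak boundaries, so how many of the peaks reached back over the TSS was not measured here.

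The window itself places members at the 5′ end of the gene structure, so the counts by exon and intron number are a description. Exonic members were 40.9% (interval 39.3 to 42.5) of those in an exon or intron, and 1286 of the 1428 (90.1%) were in exon 1, 108 in exon 2 and 30 in exon 3. By reading frame, 725 exonic members (50.8%) lay in the coding part, 697 (48.8%) in the 5′ UTR and 6 in a 3′ UTR. Of the 2065 intronic members, 1933 (93.6%) lay in intron 1, 103 in intron 2 and 22 in intron 3. Exon 1 was longer at genes with exonic members, with a median of 351 bp against 175 bp for intronic members and 194 bp over all 22835 spliced TSSs. This follows in part from the window, because a short exon 1 ends before it starts. Members in intron 1 had a median distance of 209 bp past the splice donor, and 929 of them (48.1%) were within 200 bp of it.

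The exonic share went down from 69.7% at 100 to 200 bp to 35.3% at 300 to 400 bp and 19.6% at 600 to 700 bp, and was then 20.6, 23.8 and 23.6% in the last 3 bins, whose intervals overlapped that of the 600 to 700 bp bin. All bases at the same distances from all NM TSSs gave the comparison, with 66.5% exonic at 100 to 200 bp, 31.6% at 300 to 400 bp, 18.9% at 600 to 700 bp and 14.0% at 900 to 1000 bp. Members were the more exonic in 9 of 9 bins of 100 bp, and in 4 of them the interval lay above the share of all bases. Weighted by the number of members per bin, all bases would be 36.9% exonic, against the 40.9% observed. The gap was widest in the farthest bin, where the interval of the members was 18.3 to 29.98%.

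**Figure D2:**
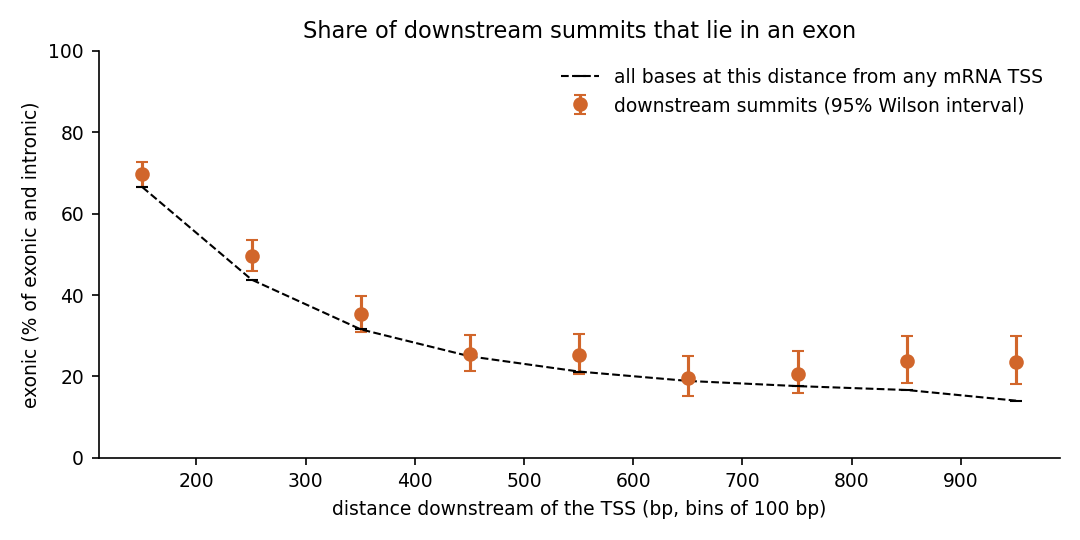
Exonic share in percent (y axis) of downstream summits in bins of 100 bp from the TSS (x axis), as points with 95% Wilson intervals, with the share of all bases at that distance from any mRNA TSS as a dashed line. The line falls throughout, while the points fall to 19.6% at 600 to 700 bp and are slightly higher beyond. They lie above the line, by the most at 900 to 1000 bp (23.6% against 14.0%).

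Downstream summits had lower scores than the other promoter summits. Their median was 5.55 (quartiles 3.32 and 9.21), against 9.21 for upstream summits, 10.9 for summits within 100 bp of a TSS, 22.9 for summits between divergent TSSs and 4.16 for those over 1000 bp from a TSS. A score of at least 10 was reached by 799 members (22.8%, interval 21.5 to 24.3), by 48.0% of upstream summits and by 54.8% of summits within 100 bp of a TSS. Scores take few distinct values, and 3457 members had the same score as another summit.

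Exonic members scored higher than intronic members over the whole window, with medians of 6.02 and 5.07, and 29.1% (interval 26.8 to 31.5) against 18.5% (interval 16.9 to 20.3) with a score of at least 10. The difference of 0.948 between these medians depended on the limits of the window and the score. It was 1.97 when the window began after 50 bp, 0.465 when it began after 200 bp and 0.506 when it ended at 500 bp, and 0.564 and 1.91 with a minimum score of 5 and 10. The 5′ UTR members had the highest median, 7.05, and coding members 5.55. These classes lay at different distances, with a median of 185 bp for the 5′ UTR, 301 bp for coding exons and 456 bp for introns. At equal distance the difference between exon and intron varied in size and direction. At 400 to 500 bp the exonic and intronic medians were 5.55 and 4.61 and at 500 to 600 bp 5.07 and 4.16, gaps close to that over the whole window, while at 100 to 200 bp they were 8.12 and 7.55, at 200 to 300 bp 6.02 and 6.52, and at 900 to 1000 bp 4.16 and 3.75. The exonic median was the higher in 6 bins, the lower in 2 and equal in 1. Against this, the upstream median was above the downstream one in 7 of 9 bins, by the widest margin nearest the TSS (14.5 against 8.12 at 100 to 200 bp), while at 600 to 700 bp both were 4.16.

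**Figure D3:**
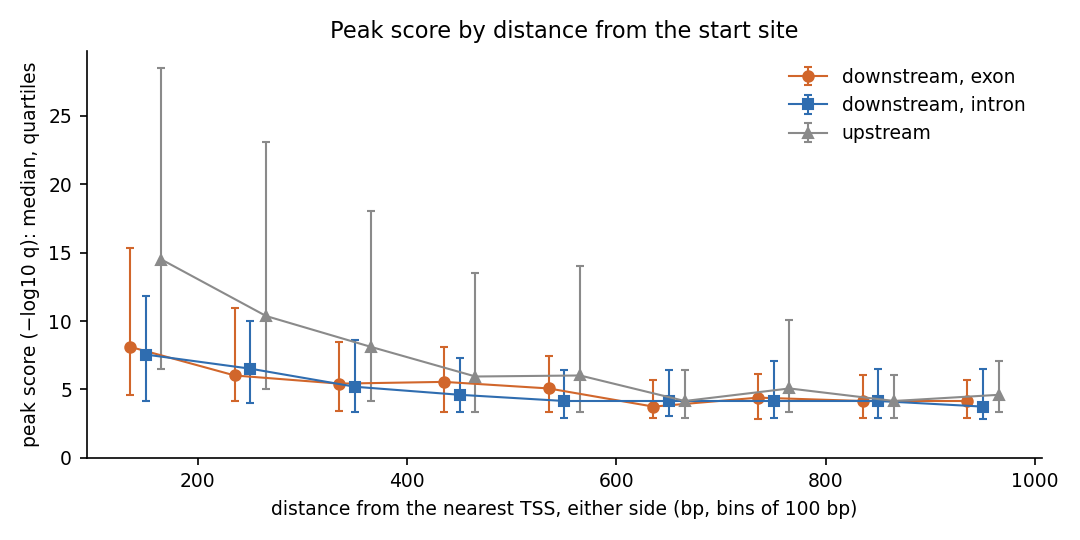
Peak score (y axis, −log10 of the q-value) in bins of 100 bp of distance from the TSS (x axis) for exonic and intronic downstream summits and for upstream summits. Points are medians and bars the quartiles. The exonic median is above the intronic one by the most at 400 to 600 bp and below it at 200 to 300 and 600 to 700 bp. The upstream median is above both within 600 bp of the TSS, and again at 700 to 800 and 900 to 1000 bp.

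Annotated start sites of other transcripts lay near some members. A TSS of another gene on the opposite strand was within 1000 bp of 262 members (7.49%), whose median score was 6.55 against 5.53 for the rest. These members also lay nearer their TSS, at a median of 226 bp against 369 bp. A RefSeq start of a predicted or noncoding transcript (XM, NR or XR) on the same strand lay within 100 bp of 5.75% of members (interval 5.02 to 6.57), with a median score of 7.05, and such a start on the opposite strand lay within 100 bp of 55 members, with a median of 9.50. Among upstream summits such a same-strand start was within 100 bp of 13.6%. The other 3252 members, with no such start within 100 bp, had a median of 5.45. Distance moved with these scores too, with medians of 200 and 259 bp for members near a same-strand or an opposite-strand start and 374 bp for those near none, and its part was not tested.

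Members lay in GC-rich DNA. Within 100 bp of the summit the median GC content was 65.2% for exonic and 60.2% for intronic members, against 59.7% upstream, 64.2% within 100 bp of a TSS and 54.2% over 1000 bp away. The median ratio of observed to expected CpG was 0.792 in exons and 0.593 in introns, and 0.681 over all members. It was also 0.681 upstream, 0.849 within 100 bp of a TSS and 0.233 over 1000 bp away. GC content fell with distance, from 65.7% at 100 to 200 bp to 56.2% at 900 to 1000 bp, but it stayed above that of all TSSs at the middle of the same bins, 60.7% and 46.8%. The exonic median was the higher of the classes at both ends of the window, 66.2 against 64.2% in the nearest bin and 62.2 against 55.5% in the farthest. The summit base was in a masked repeat at 2.97% of members, 4.94% of upstream summits and 1.98% of summits within 100 bp of a TSS. Among summits over 1000 bp from a TSS it was 16.5%.

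Short patterns of DNA were counted within 100 bp of each summit on both strands. The SP/KLF pattern GGGCGG, the GC box read by the Sp1 and Krüppel-like factors, was the most frequent: 32.4% (interval 30.8 to 33.9) of members held it, against 43.6% of upstream summits and 57.8% of summits within 100 bp of a TSS. Windows 550 bp downstream of all 24860 TSSs held it in 16.0%, and windows at the members' own distances in 21.5%. The share was 38.2% in exonic and 28.3% in intronic members, where windows at their distances gave 24.8 and 19.2%. In the bin nearest the TSS it was 41.7% against 30.04% for all TSSs, in the farthest 15.4 against 7.33%, and it was the higher in 9 of 9 bins. The members' higher GC content moved with this result, and its part in it was not tested. On the transcribed strand 744 members held the pattern and on the other strand 523, while upstream summits were nearly even (794 and 775). Windows 550 bp downstream of all TSSs had the same lean, 2456 and 1929.

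The CCAAT box, the site of NF-Y, was found at 15.9% (interval 14.7 to 17.1) of members, below the 30.4% upstream and the 34.7% within 100 bp of a TSS. Windows at the members' distances from all TSSs held it in 19.04%, and members were below them in 8 of 9 bins. Among the members that scored 10 or more, however, the share was 20.3%, above those windows. The TATA pattern TATAAA was in 1.74% of members against 6.48% of such windows, below in 9 of 9 bins, and it was 1.00% among members that scored 10 or more. The higher GC content of the members moved with both results, and its part was not tested.

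Other patterns were rarer. The ETS pattern CCGGAAG was in 5.32% of members, 7.66% of upstream summits and 20.6% of summits within 100 bp of a TSS, with 2.86% in windows at the members' distances. Among the members that scored 10 or more it was 9.01%. The pattern CCCNNGGGA of the early B-cell factors, to which the brown fat factor Ebf2 belongs, was in 8.18% (interval 7.32 to 9.13) of members against 6.40% upstream and 5.24% in windows at their distances. Windows of all TSSs also held it more often downstream, 4.94% at 550 bp downstream against 3.16% at 550 bp upstream. The GC content of the members was higher than that of such windows, and its part was not tested. For this pattern introns (9.25%) had more than exons (6.65%), with intervals of 8.07 to 10.6 and 5.47 to 8.06% that just failed to overlap. The NRF1 pattern GCATGCGC was in 1.03% of members, 2.92% of upstream summits and 5.33% of those within 100 bp of a TSS, and in 2.25% of members that scored 10 or more. For TGACGT, the core of the cAMP response element (CRE), these shares were 3.69, 6.82 and 12.6%, and for the E-box CACGTG 4.35, 6.72 and 8.43%. In windows at the members' distances NRF1 was in 0.483%, TGACGT in 2.35% and the E-box in 3.02%, and members were above them in 5, 8 and 9 of 9 bins. The AP-1 pattern TGANTCA (3.66%) and the C/EBP pattern TTNNGCAA (5.80%) were close to the windows at the members' distances (3.68 and 6.32%). The ERR pattern TCAAGGTCA was at 11 members (0.315%, against 0.321% in those windows). Among the 799 members that scored 10 or more it was 0.125%, a share too small to read as a change. The splice donor pattern GGTAAG, searched on the transcribed strand alone, was in 5.81% of exonic and 5.96% of intronic members, against 2.18% upstream and 6.97% at the members' distances from all TSSs.

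**Figure D4:**
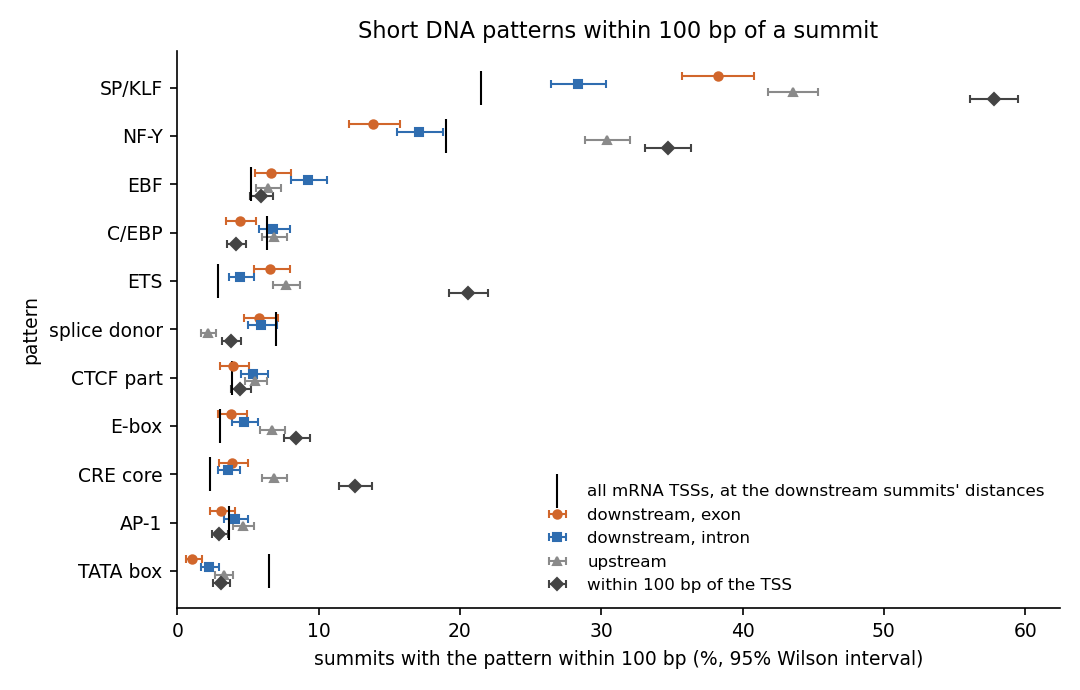
Percent of summits with each pattern within 100 bp (x axis, 95% Wilson intervals) for exonic and intronic downstream summits, upstream summits and summits within 100 bp of the TSS, with all mRNA TSSs at the members' distances as a black bar. For SP/KLF, NF-Y, ETS and the CRE core the downstream summits lie to the left of the other promoter summits, and for EBF the intronic members lie to the right.

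The members belonged to 3311 genes, and the background share of all 20021 genes with an NM TSS on these chromosomes that had a downstream summit was 16.5%. A single member was found at 3136 of them, 2 members at 168 and 3 or more at 7. For 2070 genes (62.5%, interval 60.9 to 64.2) the members were the only summits of the promoter, with none within 100 bp of a TSS and none farther upstream to 1000 bp. The count depended on the settings. Among summits that scored 10 or more it was 702 of 789 genes with a member. When the window began after 200 bp it was 1397 of 2535. The best member of the 2070 genes had a median score of 6.02, and 29.9% reached 10, whereas the 1241 genes with another promoter summit had a median of 4.61 and 13.8% at 10 or more. Where a gene had both, the member was usually the weaker: of 352 genes with a summit within 100 bp of a TSS as well, the member scored higher in 69 (19.6%), with medians of 4.12 and 10.2. Of 986 genes with an upstream summit it scored higher in 320 (32.5%), with medians of 5.04 and 8.12.

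The genes with the most members had several start sites. Plec, which codes for the cytoskeletal linker plectin, had 6 members and 11 NM TSSs; they lay up to 716 bp from their nearest TSSs, with scores from 2.18 to 20.2. Tgif1, a homeobox repressor, had 4 members with scores from 1.54 to 10.4. The phosphodiesterase gene Pde4a, the natriuretic peptide clearance receptor gene Npr3, the retinoic acid receptor gene Rara, Csnk1g2 and Slc9a3r2 had 3 each. The highest score among these was 20.9, at 178 bp in exon 1 of Pde4a. Genes with several TSSs were 23.3% of those with a member and 17.3% of all genes, and each further TSS adds a window in which a summit can fall.

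A small number of members had very high scores. The highest, 1748.8, was 216 bp into the only exon of Gm20594 on chromosome 6, where 439 bp matched the mitochondrial genome at 88.4% identity. It was the only member with such a match of at least 200 bp, so its score cannot be told apart from reads of mitochondrial DNA, and without it the highest score was 114. A score of at least 50 was reached by 40 members (1.14%), of which 28 were exonic.

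Leaving Gm20594 aside, the exonic members with the highest scores were in exon 1 with 1 exception. In the 5′ UTR they were at Tsga10 (score 114, 102 bp from the TSS), Ubxn6, a cofactor of the ATPase p97 (102, at 168 bp), Cln8, an endoplasmic reticulum protein (78.8, at 193 bp), Dmtn, the actin-bundling protein dematin (75.6, at 181 bp), Zfp574 (67.4, at 356 bp), Mphosph9 (66.4, at 161 bp) and Hnrnpul2 (64.4, at 426 bp). In coding sequence they were at Usp5, a deubiquitinase of free ubiquitin chains (86.2, at 170 bp), and at Ppdpf (62.5), whose summit was 768 bp from the TSS in exon 3. A predicted or noncoding start on the same strand lay 55 bp from the Usp5 summit and 64 bp from that of Mphosph9. The TSS of another gene on the opposite strand lay 278 bp from the summit of Mphosph9, 466 bp from Ubxn6, 533 bp from Hnrnpul2 and 862 bp from Usp5. Over all members 7.49% had such a TSS within 1000 bp. Only Dmtn and Ubxn6 of these exonic members had another promoter summit. In both the downstream summit was the stronger, 75.6 against 4.16 within 100 bp of a TSS at Dmtn and 102 against 22.4 upstream at Ubxn6.

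The intronic members with the highest scores lay in intron 1 except that of Smim7 (66.7), in intron 2. Cic, the repressor capicua, had 102 at 303 bp, in the window with 2 CCAAT boxes on the opposite strand printed above, and an upstream summit with 12.4. Kat6b, a histone acetyltransferase, had 90.5 at 925 bp and an upstream summit with 3.75. Tom1, an endosomal trafficking protein, had 83.0 at 240 bp, and Leng8 had 75.7 at 166 bp. Mitochondrial proteins were among them: Immt, the core of the complex that shapes the cristae, had 77.7 at 330 bp, Wars2, the mitochondrial tryptophanyl-tRNA synthetase, 53.8 at 236 bp, and Opa3 53.5 at 264 bp. Nmnat1, which makes NAD in the nucleus, had 63.5 at 272 bp, and Otop1, a proton channel gene known from brown fat, 67.7 at 926 bp. Other than at Cic and Kat6b these were the only summits of their promoters. A TSS of another gene on the opposite strand lay 329 bp from the Nmnat1 summit and 973 bp from that of Smim7. The others had none within 1000 bp.

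Of 31 brown adipocyte genes, 8 had a downstream summit (25.8%, interval 13.7 to 43.2) and 26 (83.9%) had a summit anywhere within 1000 bp of a TSS, against 16.5 and 46.8% of all genes. Of those 26 genes 30.8% had one downstream, below the 35.3% over all genes. Otop1 stood well above the others. The nuclear receptor gene Esrra, a regulator of mitochondrial genes, had 11.5 at 813 bp, Aifm2, an oxidoreductase for NADH on lipid droplets, 10.9 at 163 bp, and Cpt1b, the muscle and brown fat form of carnitine palmitoyltransferase, 7.58 at 820 bp. The potassium channel gene Kcnk3 had 7.12 at 659 bp, the cytochrome c oxidase subunit gene Cox8b 6.02 at 123 bp, the hormone gene Fgf21 4.75 at 890 bp and the adipogenic factor gene Cebpb 4.16 at 867 bp. Cox8b and Cebpb were coding exon members and the others intronic. At Esrra, Cpt1b, Kcnk3 and Cebpb the upstream summit was far stronger (59.5, 54.7, 36.4 and 41.0), and Aifm2 had 30.1 within 100 bp of a TSS, while at Cox8b the upstream summit was the weaker (2.91). Only at Otop1 and Fgf21 was the downstream summit the only one of the promoter. Of the 12 genes on these chromosomes that the study names for its genome-wide data, 4 had a member (33.3%, interval 13.8 to 60.9, against 16.5% of all genes). Among those with any promoter summit the share was 36.4%, close to the 35.3% over all genes. The 4 were Aifm2, Cox8b, Hdac3 (8.12, at 195 bp) and Cox20 (4.16, at 262 bp, with an upstream summit of 45.8).

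Genes of lipid metabolism had the highest share of the lists, 13 of 30 (43.3%, interval 27.4 to 60.8, against 16.5% of all genes). Pnpla2, the triglyceride lipase of the lipid droplet, had 47.3 at 741 bp in intron 1 and no other promoter summit. Agpat2, an acyltransferase of glycerolipid synthesis, had 29.3 at 304 bp in coding sequence, also without another promoter summit. Lipe, the hormone-sensitive lipase, had 26.9 at 290 bp in the 5′ UTR beside an upstream summit of 84.8. The list also had more promoter summits of any kind than all genes (86.7 against 46.8%), and of its genes with any promoter summit 50% had one downstream, against 35.3% over all genes.

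Dot1l itself had no member. Of 25 genes of Dot1l and transcription elongation, 9 had one (36.0%, interval 20.2 to 55.5, against 16.5% of all genes), of which 8 were intronic. Among genes with any promoter summit, where the share over all genes was 35.3%, it was 39.1% for this list. Cdk9, the kinase that releases paused RNA polymerase II, had 25.9 at 429 bp and an upstream summit of 24.6. Nelfb, a subunit of the pausing factor NELF, had 13.4 at 256 bp in coding sequence. Lower scores were found at other genes: Mllt10 and Mllt1, whose proteins bind Dot1l, had 5.55 and 3.32, the elongation factor gene Ell2 4.61 beside an upstream summit of 73.8, and the PAF1 complex genes Leo1, Cdc73 and Rtf1 4.92, 2.15 and 1.45. Nelfb and Cdc73 had no other promoter summit.

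Immediate early and circadian clock genes had members only beside other promoter summits. Of 24 immediate early genes 7 had one (29.2%, interval 14.9 to 49.2), and of 18 clock genes 6 (33.3%, interval 16.3 to 56.3), with the 16.5% of all genes inside both intervals. In 0 of these 13 genes was it the only summit of the promoter, where the share over all genes with a member was 62.5%. Among the immediate early genes, Klf4 had 10.4 at 1000 bp beside 14.0 upstream, Atf3 9.78 at 662 bp beside 50.97 upstream, Nr4a1 8.65 at 809 bp beside 25.9 upstream, and Nr4a2 and Ier5 7.05 each at 322 and 969 bp, beside 15.4 and 13.8 within 100 bp of a TSS. Fosl1 had 6.53 at 906 bp and Myc 4.16 at 437 bp, both above the other promoter summit (5.07 and 1.41). Among the clock genes, Nfil3 had 12.2 beside 23.8 upstream, Arntl, which codes for the activator Bmal1, 10.9 at 709 bp beside 37.6 upstream, Tef 6.35 beside 43.7 upstream and the repressor gene Cry2 2.15 beside 26.1 upstream. At Bhlhe40 (10.4 against 7.39 upstream) and Per3 (4.61 against 2.92) the downstream summit was the higher. Among genes with any promoter summit, 31.8% of the immediate early and 42.9% of the clock genes had one downstream, against 35.3% over all genes.

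Genes of mitochondria and ribosomes were counted in the same way, with the 16.5% of all genes as background. Of 78 mitochondrial ribosomal protein genes 21 had a member (26.9%, interval 18.3 to 37.7). It was the only promoter summit in 17 of them, against 62.5% over all genes with a member. The highest scores were at Mrps28 (42.8, at 160 bp in coding sequence), Mrpl54 (30.1, at 199 bp) and Mrpl36 (19.4, at 298 bp). Of 83 oxidative phosphorylation subunits 15 had a member (18.1%), close to the background. It was the only promoter summit in 10 of these 15, close to the 62.5% over all genes with a member. All but 2 were intronic, led by the ATP synthase genes Atp5g3 (26.9, at 210 bp) and Atp5c1 (23.8, at 198 bp) and the complex I gene Ndufa12 (23.2, at 140 bp). Of 43 Slc25 mitochondrial carriers 12 had one (27.9%), with Slc25a44 (29.3) and Slc25a45 (26.1) the highest. Cytosolic ribosomal proteins had members at 19 of 76 genes (25%), with Rpl21 (17.4) and Rpl10a (17.4) the highest, and nuclear receptors at 9 of 47 (19.1%), with Nr2c1 (24.6) the highest.

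Replication-dependent histone genes, which are short and unspliced, had members at 16 of 62 genes (25.8%), of which 14 were exonic and 0 intronic. H2ac19 had 23.8 at 148 bp and H2bc8 11.5 at 240 bp, both in coding sequence, and the summit at H1f2 (14.0) was 976 bp from the TSS, past the end of the mRNA. These genes have near-identical copies, and how reads with several matches were placed is not given in the sources used here. At the other end, 0 of 1097 olfactory receptor genes had a member, which allows a share of up to 0.349%. The intervals of the lipid, elongation and mitochondrial ribosomal protein lists lay above the 16.5% of all genes. Those of the Slc25, cytosolic ribosomal and histone lists began just past it, at 16.7, 16.6 and 16.6%, and those of the other lists that had members included it. Counted among genes with any promoter summit instead, the share over all genes was 35.3%. It was 37.5% for Slc25 carriers, 37.5% for nuclear receptors and 35.6% for histone genes, above all genes by little. It was 31.3% for mitochondrial ribosomal, 27.1% for cytosolic ribosomal and 20.5% for oxidative phosphorylation genes, below all genes. The lists were chosen with earlier results known, so these intervals describe them and no test was made.

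**Figure D5:**
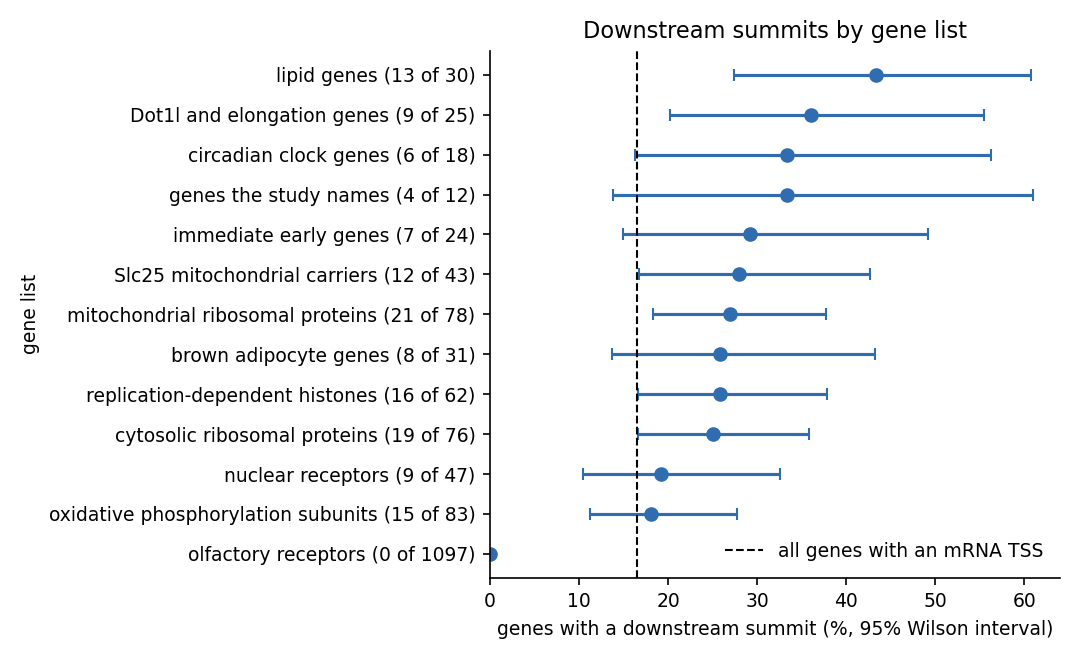
Percent of genes with a downstream summit (x axis, 95% Wilson intervals) for each gene list (y axis, with the count of genes), and for all genes as a dashed line at 16.5%. Lipid genes are highest at 43.3%, oxidative phosphorylation subunits sit near the line and olfactory receptors are at 0.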

How the data were processed

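ATAC-seq libraries of BAT from 2 WT and 2 Dot1L-BKO mice were sequenced. BWA alignment to mm10 and peak calling by MACS2 2.1.1 (ATAC mode) were done by the authors, who kept peaks with q under 0.05 and enrichment of at least 2; cutadapt 1.2.1 and bcl2fastq 2.2 are named in the submitters' processing notes. They deposited 1 list of summits for the 4 libraries, with the −log10 of the q-value of each peak as its score; peak names set the WT libraries against the Dot1L-BKO libraries, and the role of each in the calling is not given in the sources used here. Transposase shifting and the handling of duplicate, multi-mapped and mitochondrial reads are not given either. The RNA-seq libraries were not analysed here. No test was run, because the list has no values per library.

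Summits were matched to RefSeq NM TSSs of GRCm38.p6 (mm10) with Python 3.11.15 and pandas 2.3.3, and the assignment was tested on simulated data. A member in an exon of any mRNA of its TSS was called exonic. Wilson intervals used scipy 1.17.1, and blastn 2.17.0 (e-value 1e-10) searched mitochondrial DNA with 500 bp on each side of a member. Patterns were exact matches. The comparison with all TSSs at the members' distances was weighted over bins of 100 bp and was added after the first values were seen. Named were the 10 exonic and 10 intronic members with the highest scores, every member of the 5 short lists (brown adipocyte, immediate early, clock, elongation, study-named) other than 1 that is not reported here, the top 3 of each longer list and the genes with the most members. Members and lists were chosen with earlier results of these data known.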

Additional observations from a re-analysis of the deposited data

How the results depend on the processing

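No paired analysis was possible because each summit has a single score and none for each of the 4 libraries, and no replicate could be left out for the same reason. Merging summits within 500 bp, keeping summits between divergent TSSs and counting exons of any NM mRNA moved no share beyond its interval and no median difference beyond 0.307, the summed half-widths of the intervals of both medians. With a minimum score of 5 there were 1936 members, 45.6% exonic and 46.7% of flank summits, an exon minus intron median difference of 0.564 and 9.46% of genes. A minimum of 10 gave 799 members, 52.0, 35.1, 1.91 and 3.94%, in that order. Starting after 50 bp gave 48.2% exonic, 50.2% of flank summits, a difference of 1.97 and 19.1% of genes, and starting after 200 bp 31.7, 58.6, 0.465 and 12.7%. Ending at 500 bp gave 2299 members, 50.4, 48.0, 0.506 and 11.3%, and ending at 2000 bp 36.3% exonic, 55.9% of flank summits and 20.4% of genes. All RefSeq transcripts gave 45.6% exonic, 57.6% of flank summits and a difference of 1.41, and genes with 1 NM TSS 43.1% exonic. The exon minus intron difference was 0.948 as reported and kept its sign throughout. Each of these settings changes which summits count as members, and no other cause was tested. Pattern shares moved beyond their intervals for 14 of 16 patterns within 50 bp of the summit, where the window is shorter, and for 12 with a minimum score of 10, of which 6 moved by over 1.5 times: ETS to 9.01%, NRF1 to 2.25%, YY1 to 2.38%, RFX to 0.501%, ERR to 0.125% and TATA to 1.00%. Some of these patterns are rare. Over all members RFX was at 9, ERR at 11, NRF1 at 36 and YY1 at 46, so few summits made their shifts. With the minimum score of 10 NF-Y was at 20.3%, above the windows at the distances of all members (19.04%), where it was below them over all members. Read depth is unknown, so it limits what can be said of any single summit with a low score.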

Other observations

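The density of downstream summits differed between chromosomes, from 11.3 per 100 NM TSSs on chromosome 6 to 18.1 on chromosome 19. The palindrome CTCGCGAG was found at 13 exonic and 3 intronic members (0.910%, interval 0.533 to 1.55, against 0.145%, interval 0.0494 to 0.426). Windows of all TSSs at the distances of exonic and intronic members held it in 0.278 and 0.190%. The YY1 pattern AAGATGGC was at 29 exonic and 17 intronic members (2.03 against 0.823%), where windows at their distances gave 1.40 and 1.19%. On the transcribed strand 27 members held it and on the other 19, while summits within 100 bp of a TSS had 105 and 32. Windows at all TSSs had the same lean, 534 and 185. Members with the NRF1 pattern had a median score of 10.7 against 5.55 for those without, and a median distance of 243.5 bp. The partial CTCF pattern CCANNAGGG was at 4.80% of members and the RFX pattern GTTGCCATG at 0.257%, against 3.90 and 0.206% of windows at the members' distances.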
